A study of Mus musculus with 2 samples.

Results

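The MYC, MAX and MXD network was described in CH12.LX, an established mouse B cell lymphoma line. The network was taken as 10 genes by symbol, namely Myc, Mycn, Mycl, Max, Mxd1, Mxd3, Mxd4, Mxi1, Mnt and Mlx, and all 10 were found among the 43346 genes of the M4 gene table. Total RNA was sequenced in 2 libraries, which the labels number as biological replicates 1 and 2, and which form 1 group. The labels give the source strain as B10.H-2aH-4bp/Wts, the sex as female and the age as unknown, and name no genotype change, agent or time. Each replicate has a biosample record of its own. With 1 group there was no contrast between conditions, so levels are described and each library is set against the other, with no p-value.

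MYC, N-MYC and L-MYC are transcription factors of the basic helix-loop-helix leucine zipper class that bind DNA only as a pair with MAX. The pair binds the E-box CACGTG and favours transcription of genes for growth, ribosome production and metabolism. The MXD proteins, MXI1 and MNT compete for MAX, bind the same DNA and recruit the SIN3 corepressor with its histone deacetylases. MLX is a MAX-like partner that pairs with the glucose-responsive factors MondoA and ChREBP and with some MXD proteins. In B cells Myc is induced by antigen and T cell help, and its deregulation is a hallmark of several B cell lymphomas.

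Summed expected counts over genes were 49278383 and 55950529 in replicates 1 and 2. Protein-coding genes took 24.4% and 24.3% of TPM (a level per length, relative to all transcripts of the library), so a TPM value here is set against a scale that is mostly taken by other genes. All 8 B cell markers, among them Cd79a and Ms4a1, were detected at 1 TPM or more in both libraries. Of 6 T cell markers 2 were detected, Cd3g and Cd3d, while Cd3e was listed at 0. No myeloid (0 of 6), erythroid (0 of 5) or stroma and epithelium marker (0 of 7) was detected in both libraries. The summed level went from 3.98 TPM in replicate 1 to 4.59 TPM in replicate 2 for T cell markers, from 0.35 to 0.34 TPM for myeloid markers and from 0.84 to 1.35 TPM for erythroid markers.

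Promoter windows in the RefSeq table (build GRCm38.p6, 250 bases before to 50 after a gene's start) were matched for 9 of the 10 genes. Myc had no window there, so its promoter was not searched. The windows were searched for CACGTG, the site the network's own dimers bind, which reads the same on both strands. It was present for Mxd4, Mnt, Mlx and Max, in 4 of 11 windows of members, and in 7.15% of all 32851 windows. The matches are shown with 20 bases on each side and CACGTG in capitals, 5′ to 3′ on the strand of the gene. A match is a description of the letters and not of binding.
Max (minus strand, chr12:76962226-76962271): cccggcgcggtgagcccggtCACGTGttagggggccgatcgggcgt
Mlx (plus strand, chr11:101087230-101087275): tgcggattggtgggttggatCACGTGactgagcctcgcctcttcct
Mnt (plus strand, chr11:74830781-74830826): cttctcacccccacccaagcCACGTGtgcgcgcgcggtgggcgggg
Mxd4 (minus strand, chr5:34187904-34187949): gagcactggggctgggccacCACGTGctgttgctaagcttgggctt
Relative to the first transcribed base of the RefSeq gene, the match began at -3 in Max, -40 in Mlx, -123 in Mnt and -219 in Mxd4. The 4 genes with a match did not differ in one direction between the libraries, since Max and Mlx were lower in replicate 2 and Mnt and Mxd4 were higher, as given for each gene in what follows.

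The network was carried by Myc, Mlx and Max, while the repressor genes were each near or below 2 TPM and Mycn was not detected. The summed level of the 10 genes was 43.4 and 38.0 TPM in replicates 1 and 2. Myc took 35.8% and 38.6% of this sum, Mlx 35.6% and 30.3%, and Max 16.0% and 13.7%. At 1 TPM or more in both libraries, 5 of the 10 genes counted as detected, Myc, Mlx, Max, Mxd3 and Mxd4. The background was 22.1% of all genes and 41.4% of protein-coding genes. In bulk RNA, fewer cells expressing a gene and less RNA per cell cannot be told apart.

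**Figure D1:**
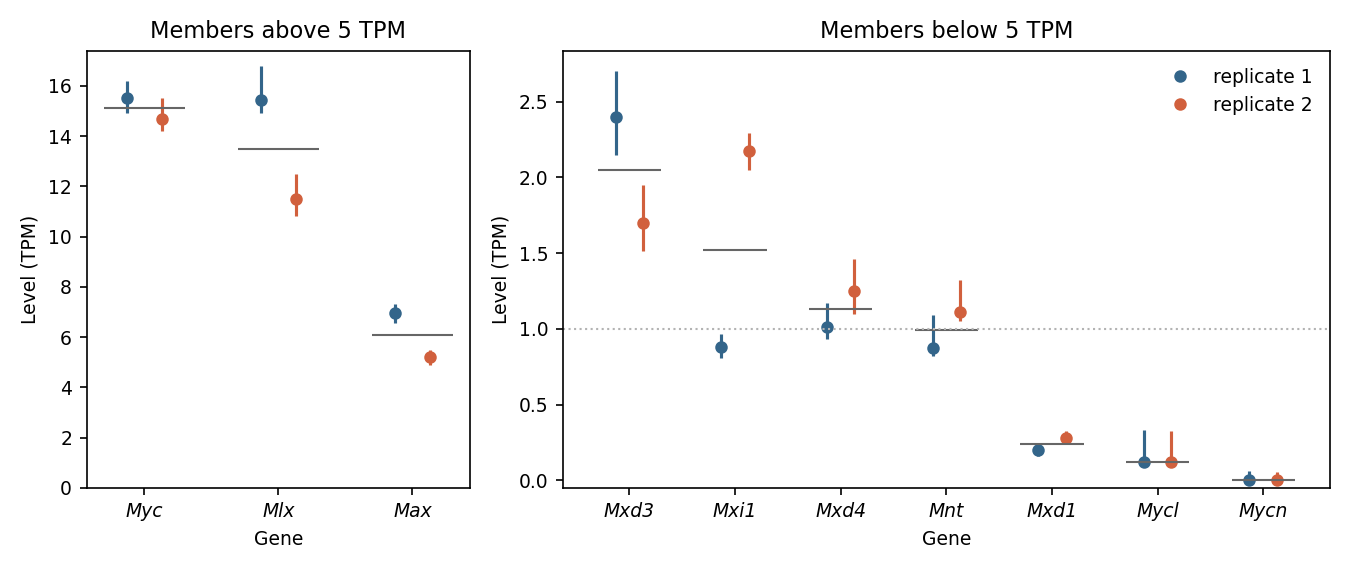
TPM of the 10 network genes in replicate 1 (blue) and replicate 2 (orange), with genes above 5 TPM on the left and below 5 TPM on the right. Vertical lines are the deposited credibility bounds of TPM, horizontal bars the mean of the 2 libraries and the dotted line 1 TPM. Myc and Mlx are highest, and Mxi1 is the only gene under 2 TPM in replicate 1 that is above 2 TPM in replicate 2.

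Among the activators, only Myc was expressed at an appreciable level. Myc (ENSMUSG00000022346, chromosome 15, 61985391 to 61990374, mm10) had levels of 15.51 and 14.67 TPM in replicates 1 and 2, or 15.1 ± 0.594 TPM (SD, n = 2). Of the protein-coding genes detected in both libraries, 25.7% had a higher mean level. The libraries were close, with deposited credibility bounds of 14.9 to 16.2 TPM in replicate 1 and 14.2 to 15.5 TPM in replicate 2. These bounds cover the assignment of reads within a library and not the spread between cultures.

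Mycl, the gene of L-MYC, was at 0.12 TPM in each library, from 32 and 45 expected counts. Mycn, the gene of N-MYC, which is best known from neural and embryonic tissue, had 0 expected counts in both libraries. A count of 3 would have been 0.0151 and 0.0139 TPM in replicates 1 and 2. The MYC family transcript pool was thus Myc by these counts, with Mycl at 0.277% and 0.316% of the network sum against 35.8% and 38.6% for Myc.

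Max, the obligate partner (chromosome 12, 76937269 to 76962201), stood at 6.96 TPM (replicate 1) and 5.20 TPM (replicate 2). Replicate 2 was the lower library, and the bounds, 6.58 to 7.31 TPM against 4.89 to 5.48 TPM, did not overlap. Myc was above Max in both, by 2.23 times in replicate 1 and 2.82 times in replicate 2 on the TPM scale. mRNA levels give no amount of protein.

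Mlx, the MAX-like partner (chromosome 11, 101087277 to 101092207), stood at 15.43 and 11.51 TPM in replicates 1 and 2. The bounds were 14.9 to 16.8 TPM and 10.8 to 12.5 TPM and did not overlap. Mlx shares 385 exon bases with Psmc3ip on the opposite strand, whose own level was 26.06 and 15.67 TPM in replicates 1 and 2. Whether the counting used strand is not given in the sources used here, and the part of Psmc3ip in the difference in Mlx was not tested.

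The 5 genes of repressors that pair with MAX summed to 5.36 and 6.51 TPM in replicates 1 and 2. Mxd3, which is known in proliferating cells and S phase, was at 2.40 and 1.70 TPM and so lower in replicate 2. It shares 105 exon bases with Prelid1 on the opposite strand, at 72.6 and 86.44 TPM. Mxd4, by contrast, had 416 and 515 expected counts and a level of 1.13 ± 0.170 TPM (SD, n = 2), with bounds that overlapped, 0.932 to 1.17 TPM in replicate 1 and 1.10 to 1.46 TPM in replicate 2. Mnt, the broadly expressed antagonist of MYC (chromosome 11, 74830920 to 74845725), was at 0.87 and 1.11 TPM, again with overlapping bounds. Mxd1, a gene of differentiating cells, was at 0.20 and 0.28 TPM. These 3 genes were all somewhat higher in replicate 2, at low levels.

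Mxi1 was the member that stood apart between the libraries. Mxi1 (ENSMUSG00000025025, chromosome 19, 53310518 to 53375810), also called MXD2, had 0.88 TPM in replicate 1 but 2.17 TPM in replicate 2, from 477 and 1292 expected counts. The bounds were 0.804 to 0.963 TPM and 2.05 to 2.29 TPM. It moved from 16.4% of the summed repressor TPM in replicate 1 to 33.3% in replicate 2, from the third to the highest of these 5 genes. Its mean level of 1.52 ± 0.912 TPM (SD, n = 2) therefore describes neither library. Gm10197, which shares 194 exon bases with Mxi1 on the opposite strand, held only 1 and 4 expected counts. In M21, AC133451.2 and Gm42846 also lie opposite to Mxi1 and Mxd4, over 5146 and 1001 bases, and were not analysed here.

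In the order of mean levels, Myc and Mlx did not separate, since replicate 1 of Mlx lay within the range of Myc. Max lay below both in each library, and above all the repressors. Mxd3, Mxi1, Mxd4 and Mnt ran into each other, with the range of each overlapping that of the next. Mxd1, Mycl and Mycn followed, each below the one before in both libraries. The Myc family sum was 2.92 times the sum of the 5 repressors in replicate 1 and 2.27 times in replicate 2. Max was 1.30 times that sum in replicate 1 and 0.799 times in replicate 2, so the order of Max and the summed repressors was not the same in the libraries.

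The libraries were then compared by ratios of expected counts, replicate 2 over replicate 1, after TMM scaling, which sets the bulk of genes to an equal level. Among the 9851 genes that averaged at least 1 TPM, the median log2 ratio was -0.03. Of the 10 members, 6 had that mean, Myc, Mlx, Max, Mxd3, Mxi1 and Mxd4. A single member, Mxi1, passed 1.5-fold and was higher in replicate 2, where the background was 5.09% of genes. At 0.88 TPM in replicate 1, Mxi1 met the mean of 1 TPM only through replicate 2, the library in which it was higher. Mnt and Mxd1 fell below that mean and were not eligible. With a mean of 0.1 TPM or more as the filter, Mxi1 was still the 1 member past the fold. No member was past 1.5-fold lower, with a background of 2.39%.

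The Mxi1 ratio was 2.53, with a 95% exact binomial counting interval of 2.28 to 2.82. Of the genes at that level, 47 of 9851, or 0.477%, had a larger ratio. Mxi1 was singled out as the member with the largest ratio, so this rank is a description only. With 1 library on each side this difference has no replicate check, and the interval covers counting error only. The log2 ratio of 1.34 was 0.75 on the log2(TPM + 1) scale, which compresses low genes. Bnip3, Pdk1 and Ankrd37, which are known as hypoxia-responsive genes as Mxi1 is, and were picked after their values were seen, were higher in replicate 2 as well, with log2 ratios of 1.87, 1.43 and 1.61. What these differences share with that of Mxi1 was not tested.

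Max, Mlx and Mxd3 were lower in replicate 2 by similar amounts. Their ratios were 0.759 (interval 0.701 to 0.821), 0.730 (0.690 to 0.773) and 0.736 (0.619 to 0.874). Of the genes that averaged at least 1 TPM, 12.6% were lower in replicate 2 by 0.32 or more on the log2 scale, against 3 of the 6 members at that level. The log2 ratios of Max, Mlx and Mxd3 were -0.40, -0.45 and -0.44, near the 5th percentile of all genes, which was -0.47. The ratio of Myc was 0.955 (0.911 to 1.00), within counting error of no difference. Mxd4 stood at 1.16 (1.01 to 1.32), and, below a mean of 1 TPM, Mnt at 1.28 (1.13 to 1.45), Mxd1 at 1.46 (1.12 to 1.90) and Mycl at 1.31 (0.816 to 2.14). Apart from Mycl, whose interval holds 1, the members above 1 all encode MAX-binding repressors. Mxd3 encodes such a repressor too but was lower, at 0.736, so the repressor genes did not all move in the same direction. The credibility bounds of the libraries did not overlap for 4 of these 6 members, 1 higher and 3 lower in replicate 2. The background was 48.5% of genes in either direction, 19.0% higher and 29.6% lower, so such separation was usual here.

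**Figure D2:**
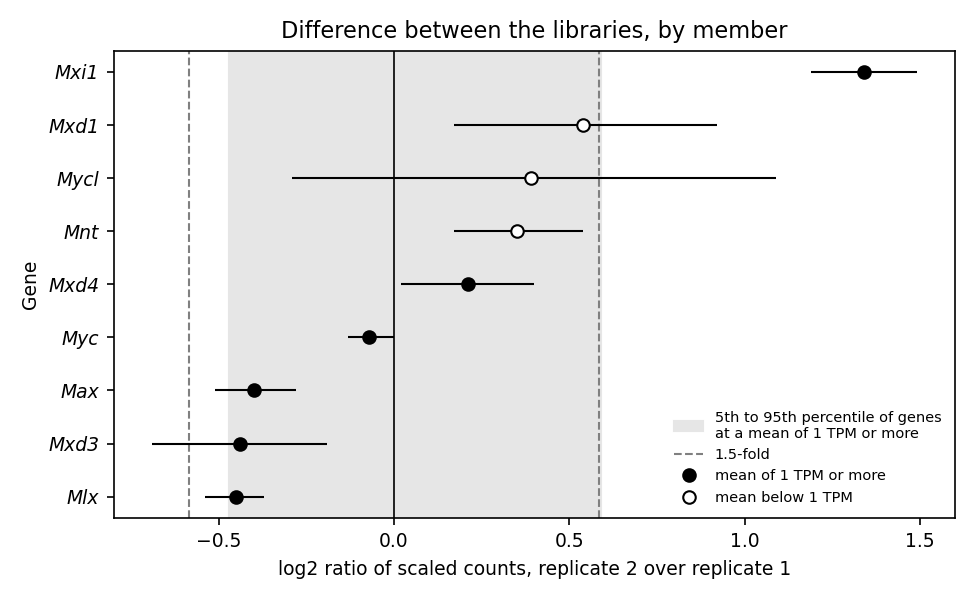
log2 ratio of TMM-scaled expected counts, replicate 2 over replicate 1, for the 9 members with counts. Lines are 95% counting intervals, filled points are members that averaged at least 1 TPM, the grey band spans the 5th to 95th percentile of genes at that level (-0.47 to 0.59) and dashed lines mark 1.5-fold. Mxi1, at 1.34, is the only member whose point lies outside the band.

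Transcript tables gave the forms of each gene as the share of its TPM. Short reads split transcripts indirectly, so these shares are estimates. Sequences at which annotated forms of Max, Mxi1, Mlx and Myc differ in an exon or in the first codon are shown first. They are from GENCODE M21 transcripts on mm10, 5′ to 3′ on the strand of the gene. In Max-202 the capitals mark a coding exon of 27 bases on chromosome 12, 76961263 to 76961289, which Max-201 skips without a change of frame. For Mxi1 and Myc the capitals mark the first annotated codon. The bases shown for Mxi1-202 and Myc-202 lie in exons that Mxi1-201 and Myc-201 also have, so they do not tell these forms apart. For Mlx the whole exon of 90 bases that Mlx-203 lacks is shown, and no sequence that sets Mlx-201 apart from Mlx-202.
Max-202: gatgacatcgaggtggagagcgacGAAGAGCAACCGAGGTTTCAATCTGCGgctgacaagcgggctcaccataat
Max-201: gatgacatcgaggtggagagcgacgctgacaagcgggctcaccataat
Mxi1-201: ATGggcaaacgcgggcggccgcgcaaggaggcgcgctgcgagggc
Mxi1-202: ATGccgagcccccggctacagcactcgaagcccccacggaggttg
Myc-201: CTGgatttcctttgggcgttggaaaccccg
Myc-202: ATGcccctcaacgtgaacttcaccaacagg
Mlx-202 (chr11:101088236-101088325): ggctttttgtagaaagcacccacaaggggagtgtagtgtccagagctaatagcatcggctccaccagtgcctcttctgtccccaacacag

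Mxi1 differed between the libraries in form as well as level. Mxi1-201 starts at 53310518 and has 885 coding bases, of which 274 lie in its own first exon. Mxi1-202 starts 18940 bases downstream, at 53329458, and its 576 coding bases begin in the exon that both forms share. This structure is that of M21, while the levels were estimated on M4 models. Mxi1-201 is 5156 bases long in M4 and 2627 in M21, and Mxi1-202 is 4996 and 5036. Mxi1-201 had 0.31 and 1.29 TPM in replicates 1 and 2, with bounds of 0.207 to 0.391 TPM and 1.13 to 1.44 TPM. Mxi1-202 was at 0.58 and 0.88 TPM, with bounds of 0.457 to 0.672 TPM and 0.711 to 1.02 TPM. Both forms were higher in replicate 2, Mxi1-201 by 4.16 times and Mxi1-202 by 1.52 times on the TPM scale. Mxi1-201 went from 34.69% of the gene in replicate 1 to 59.62% in replicate 2, so the leading form was not the same in the libraries. How many genes outside the network changed their leading form between these libraries was not counted, so how usual such a change is here is not known.

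**Figure D3:**
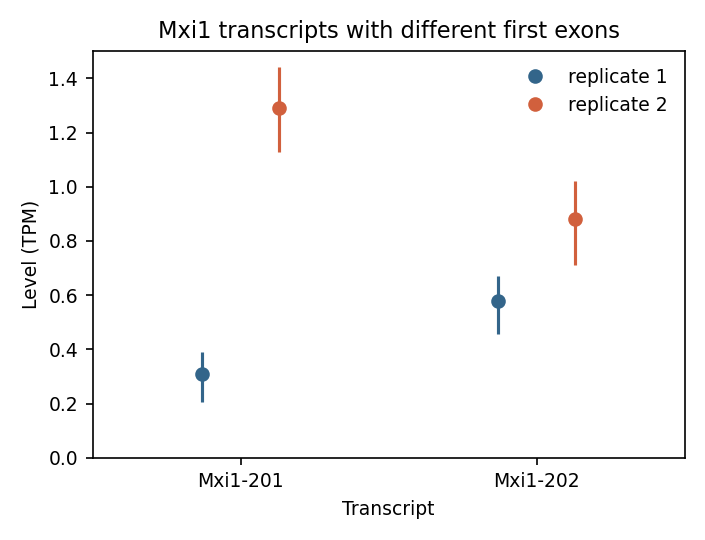
TPM of Mxi1-201 and Mxi1-202, which have different first exons, in replicate 1 (blue) and replicate 2 (orange), with the deposited credibility bounds as lines. Mxi1-202 is above Mxi1-201 in replicate 1 (0.58 against 0.31 TPM) and below it in replicate 2 (0.88 against 1.29 TPM).

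The 250 bases before the 2 RefSeq starts nearest to these forms are shown because the forms differ by start site. They lie on the plus strand of chromosome 19, at 53310256 to 53310505 and at 53329163 to 53329412, and hold 55.2% and 60.0% G or C. None of the 3 Mxi1 windows searched for the E-box holds CACGTG.
Mxi1-201 window: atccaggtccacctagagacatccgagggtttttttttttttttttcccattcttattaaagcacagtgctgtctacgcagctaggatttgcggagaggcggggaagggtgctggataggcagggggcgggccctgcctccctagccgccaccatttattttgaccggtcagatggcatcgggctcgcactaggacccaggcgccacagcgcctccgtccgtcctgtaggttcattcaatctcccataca
Mxi1-202 window: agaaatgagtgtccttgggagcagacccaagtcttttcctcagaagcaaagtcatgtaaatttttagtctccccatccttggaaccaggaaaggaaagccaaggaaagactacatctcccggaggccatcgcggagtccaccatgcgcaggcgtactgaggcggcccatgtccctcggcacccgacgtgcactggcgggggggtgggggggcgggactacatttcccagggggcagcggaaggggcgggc

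Max was mostly the form without the 27-base exon. Max-201 held 76.12% of Max in replicate 1 and 82.70% in replicate 2, and Max-202 held 23.88% and 17.30%. By level, Max-201 was at 5.30 and 4.30 TPM and Max-202 at 1.66 and 0.90 TPM. The bounds of Max-202, 1.20 to 2.22 TPM and 0.582 to 1.32 TPM, overlapped.

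Mlx was led by Mlx-202, with 51.85% in replicate 1 and 53.91% in replicate 2. Mlx-201, which has 162 more coding bases in its first exon, held 28.08% and 24.36%. Mlx-203, which skips the 90-base exon, held 12.56% and 9.04%. These 3 forms had less TPM in replicate 2, by ratios of 0.647 for Mlx-201, 0.775 for Mlx-202 and 0.536 for Mlx-203. Mlx-206 went the other way, from 0.32 TPM (2.05% of the gene) in replicate 1 to 1.01 TPM (8.75%) in replicate 2, with wide bounds that overlapped, 0.0452 to 1.80 TPM in replicate 2.

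Myc was split over transcripts with different starts and a shared last exon. Myc-202 held 31.66% and 30.26% in replicates 1 and 2. Myc-201 and Myc-205 have identical sequences in M21 and differ only in the annotated first codon, the upstream CTG shown for Myc-201 or the ATG that Myc-205 shares with Myc-202. Reads cannot tell them apart, and each was listed at 26.53% in replicate 1 and 27.20% in replicate 2. Myc-204, which starts within an intron of the others, held 8.89% and 6.82%.

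Mxd1, Mxd3, Mnt and Mxd4 were each listed mostly as 1 form. Mxd1-201 held 100% of Mxd1 in both libraries, Mxd3-201 held 95.4% ± 0.799, Mnt-201 98.9% ± 1.59 and Mxd4-201 94.6% ± 7.61 (SD, n = 2). Mycl had no settled form, since Mycl-202 held 73.68% and 75.52% of its TPM, from few counts, but 33.1% and 34.9% by the deposited posterior mean estimate.

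**Figure D4:**
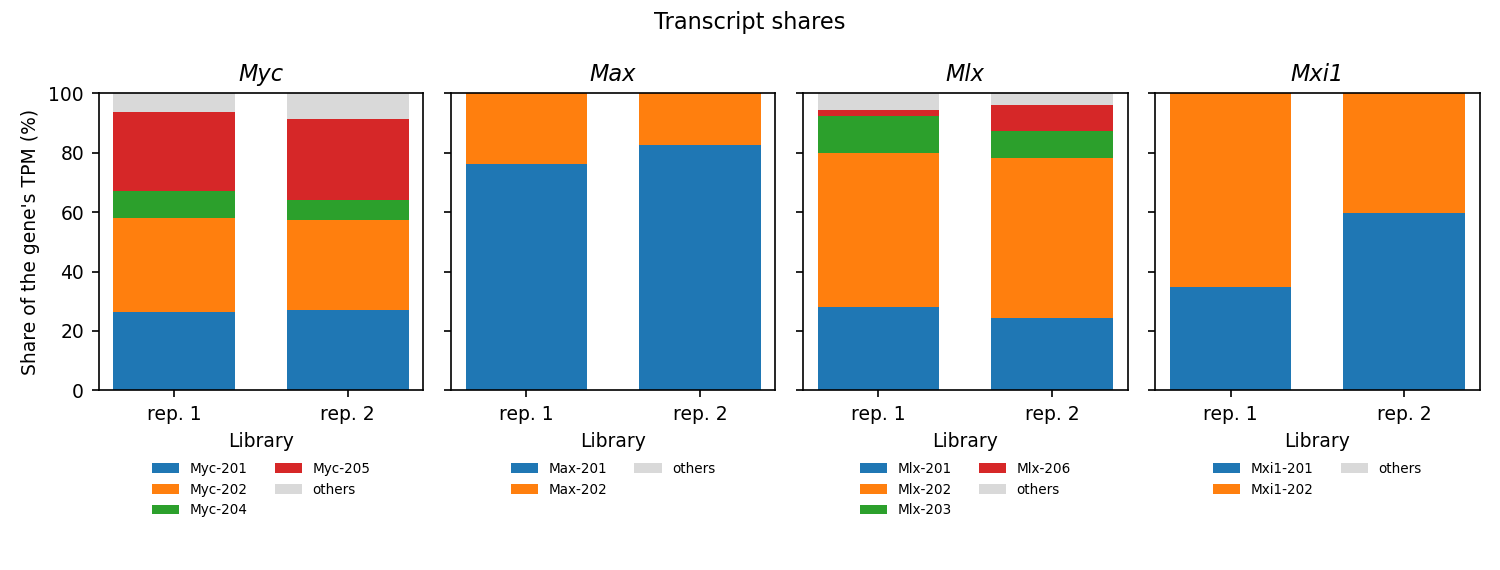
Share of each gene's TPM by transcript for Myc, Max, Mlx and Mxi1, with 1 stacked bar per library and transcripts under 5% in both libraries shown as others. Mxi1-201 goes from 34.69% in replicate 1 to 59.62% in replicate 2, beside 76.12% and 82.70% for Max-201 and 51.85% and 53.91% for Mlx-202.

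Genes that work with the network were described from lists, beside all genes that averaged at least 1 TPM. For the detection counts and median levels of these lists, the background was 41.4% of protein-coding genes detected, with a median of 6.67 TPM over those detected. Of the other partners, Mga, a large MAX-binding protein, was at 7.81 ± 0.735 TPM (SD, n = 2). Mlxip, the gene of MondoA, had 1.39 and 1.57 TPM in replicates 1 and 2. Mlxipl, the gene of ChREBP, was listed at 0 TPM, so of the glucose-responsive partners of MLX only MondoA was detected.

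Coactivators and corepressors were expressed throughout. All 16 MYC coactivator genes were detected, with a median of 9.27 TPM. Ruvbl2 and Ruvbl1, helicases of chromatin complexes, were highest at 52.0 ± 6.01 and 43.7 ± 8.90 TPM, and Smarcb1 was at 23.5 ± 1.10 TPM. All 17 genes of the SIN3 corepressor list were also detected, with a median of 9.02 TPM. Rbbp7, a histone-binding subunit, was at 92.6 ± 14.9 TPM, Sap18 at 48.2 ± 11.9 TPM, Sin3b, a scaffold that MXD proteins bind, at 38.8 ± 6.02 TPM and Ing2 at 1.71 ± 0.304 TPM. No gene of either list passed 1.5-fold between the libraries, where 7.47% of all genes did, and the median log2 ratios were -0.05 and -0.04.

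Among 15 regulators of MYC stability, 14 were detected. Set, an inhibitor of the phosphatase PP2A, led the list with 209 and 130.1 TPM in replicates 1 and 2. Huwe1, a ubiquitin ligase, was at 25.9 ± 0.0778 TPM, Aurka, a mitotic kinase, at 23.0 ± 2.59 TPM, and Usp28 was lowest at 0.755 ± 0.0778 TPM. Fbxw7, the ligase subunit that recognises phosphorylated MYC, was at 7.29 ± 0.735 TPM. None passed 1.5-fold by scaled counts, where Set had a ratio of 0.688, although its TPM values differ by more than that. The median log2 ratio over the 14 genes that averaged at least 1 TPM was -0.14. All 4 genes of the MIZ1 list were detected, with Zbtb17, the gene of MIZ1, highest at 10.4 ± 0.219 TPM, then Nfyc at 9.32 ± 1.00 TPM, Sp1 at 7.02 ± 0.806 TPM and Nfyb at 6.53 ± 0.163 TPM.

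Genes that MYC is known to induce were high, and most were somewhat lower in replicate 2. All 30 were detected, with a median of 50.1 TPM, led by Npm1 at 944 ± 51.1 TPM, Nme2 at 437 ± 64.6 TPM and Odc1, the polyamine synthesis enzyme, at 344 ± 12.4 TPM. Tert, the telomerase subunit, was lowest at 1.74 ± 0.0707 TPM. In replicate 2, 22 of 30 were lower, with a median log2 ratio of -0.33 against -0.03 over all genes, although Myc itself had a log2 ratio of -0.07. By scaled counts 1 of 30 genes was past 1.5-fold lower, beside 2.39% of all genes. It was Hspd1, a mitochondrial chaperone, with 143.5 and 87.07 TPM in replicates 1 and 2, a log2 ratio of -0.71. The 8 genes above a ratio of 1 included Ldha at 0.48, Slc7a5 at 0.42 and Shmt2 at 0.39, of glycolysis, amino acid uptake and serine metabolism, named after their values were seen. Gnl3, a nucleolar protein, had 29.69 and 19.69 TPM, past 1.5-fold by TPM but not by scaled counts, where its ratio was 0.674. When the list was chosen, a similar list of ribosome biogenesis and MYC-related genes was already known to be lower in replicate 2, so its direction is not independent evidence.

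Genes that MYC is known to repress were few and low. Of 7 genes, 3 were detected, and each was past 1.5-fold higher in replicate 2. Cdkn1a, the gene of the cell cycle inhibitor p21, was at 6.21 and 9.76 TPM, Cdkn1b, the gene of p27, at 3.02 and 4.60 TPM, and Gadd45a, a stress gene, at 1.44 and 2.99 TPM. Their log2 ratios were 0.59, 0.64 and 1.04. Over genes that averaged at least 1 TPM, 5.09% passed that fold in this direction. Of the genes not detected, Ndrg1 and Ndrg2 had log2 ratios of 1.84 and 0.88, with bounds that overlapped for Ndrg2. Hes1, at 0.85 and 0.87 TPM in replicates 1 and 2, had a log2 ratio of -0.02. Cdkn2b was listed at 0 in both libraries. This list, too, was chosen with earlier results of these data known.

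Txnip, the best known target of MondoA and MLX, had 12.18 and 17.94 TPM in replicates 1 and 2, a log2 ratio of 0.50, while Arrdc4 and Pklr were listed at 0 and Klf10 was at 0.31 ± 0.0566 TPM. Txnip was higher in the library in which Mlx was lower, and both log2 ratios lay within the 5th to 95th percentile of all genes (-0.47 to 0.59). With 1 library on each side, a link between these differences was not tested. Pvt1, the noncoding gene next to Myc, had 8.92 and 7.65 TPM in replicates 1 and 2, with a log2 ratio of -0.12 beside -0.07 for Myc.

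**Figure D5:**
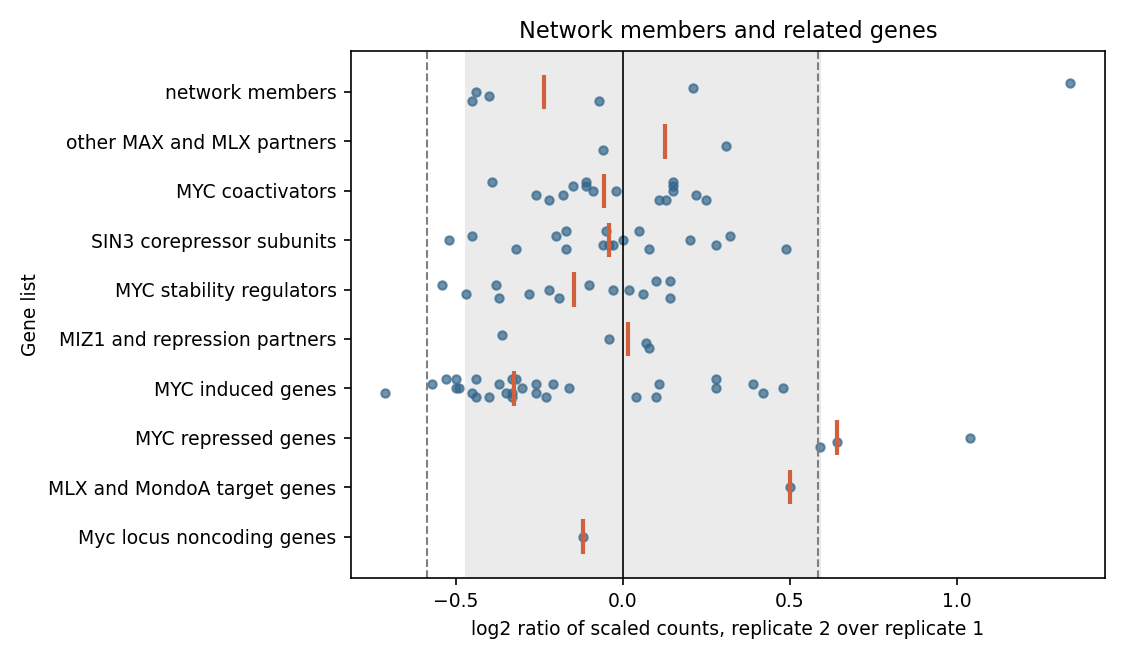
log2 ratio of scaled counts, replicate 2 over replicate 1, for genes that averaged at least 1 TPM, with 1 line of points per list, 1 point per gene and the list's median as an orange bar. The grey band spans the 5th to 95th percentile of all genes at that level and dashed lines mark 1.5-fold. The median of MYC induced genes lies at -0.33 and that of the 3 MYC repressed genes at 0.64.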

How the data were processed

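Total RNA of CH12.LX was measured in 2 libraries. Per the labels and each library's manifest, tables were made on mm10 with annotation releases M2, M3 and M4. The aligner and the quantifier were not given in the sources used here, nor were their versions. The deposited expected counts (estimated counts), TPM and FPKM values and the percent share of a transcript in its gene are named so per the file headers. Other deposited columns used are also per the file headers. They include the credibility bounds of TPM, the posterior mean of TPM, the transcript share from it and the effective length. The M4 table was the main one. Its 26248 entries with numeric identifiers and 97 spike-in entries, together 5.68e-05% and 5.36e-05% of counts in replicates 1 and 2, were left out.

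Gene identifiers without version were matched to GENCODE M21, and 42462 of 43346 matched. Coordinates are those of M21. Expected counts were rounded to whole numbers and scaled with TMM (edgeR 4.0.16, R 4.3.3) over genes with at least 10 counts in sum. Ratios have 95% exact conditional binomial (Clopper-Pearson) intervals, which cover counting error only. Genes past 1.5-fold were counted among those at a mean of 1 TPM or more. The ratio step was tested on simulated data. DESeq2 1.42.0 size factors were an alternative. Python 3.11.15 was used with scipy 1.17.1, pandas 2.3.3, numpy 2.4.6 and matplotlib 3.10.9.

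The members and gene lists were chosen with earlier results of these data known. Named genes are all members, the 3 highest, the lowest and those past 1.5-fold of each list, and transcripts at 10% or more in both libraries. Bnip3, Pdk1, Ankrd37, Fbxw7, Gnl3, Ldha, Slc7a5, Shmt2, Ndrg1, Ndrg2, Hes1, Mlx-203, Mlx-206 and Myc-204 fall outside it and were picked with their values in view. Some genes that the rule names are not reported here. With 2 libraries, no likeness between patterns of genes could be measured. Ccdc26 was not analysed here.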

Additional observations from a re-analysis of the deposited data

How the results depend on the processing

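No paired analysis was possible because the design has a single group. The number of members detected was 5, and 5 to 7 with a library left out, since Mxi1 and Mnt reached 1 TPM in replicate 2 alone. At a threshold of 5 TPM it was 3, because fewer genes pass a higher threshold. With TPM rescaled to protein-coding genes, which raises the value of every gene, it was 7. Myc was then at 63.55 and 60.45 and Mxi1 at 3.61 and 8.94 in replicates 1 and 2. The share of all genes detected was not counted at these other settings, so the changes in number are not particular to the network. The log2 ratio of Mxi1 was 1.32 to 1.34 with DESeq2 size factors, TMM without a filter, protein-coding totals and the M2 and M3 tables, 1.21 on the log2(TPM + 0.1) scale and 0.75 on the log2(TPM + 1) scale. Mxi1 remained the 1 member past 1.5-fold in each of these. With the threshold lowered to 0.32 on the log2 scale, 3 members, Max, Mlx and Mxd3, counted as lower in replicate 2 in place of 0. The background at that threshold was 12.6% of genes. The log2 ratios of the other members kept their sign in each alternative run, except that of Mycl, which was 0.39 by counts and 0.00 by TPM. The share of Mycl-202 was 74.6%, and 34.0% from posterior mean TPM. Mycl rests on 32 and 45 counts.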
